A study of Bos taurus with 18 samples.

Results

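The genes described here stood at least 4 times higher in bovine muscle precursor cells differentiated in serum-free medium on a DMEM/F-12 base than in the same kind of medium on a DMEM base, and, on means with a small constant added, changed less than 3-fold when cells were differentiated with serum. They were chosen on the counts themselves. With CPM as counts per 1000000 of a library's total, and 0.5 CPM added to the mean of each group, a gene had to reach at least 5 in SFDM, at least 4 times the value of DMEM, and a ratio of DM to GM between 1/3 and 3. Of 27607 Ensembl bovine gene identifiers, 15 met these limits, and all 15 were abundant enough to be tested. The files do not pair identifiers with gene names, so no function can be given for any of them. The 15 are numbered here from gene 1, with the highest ratio of SFDM to DMEM, to gene 15, with the lowest, and 4 are also given by identifier.

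The cells were satellite cells of Belgian Blue cattle, a breed known for its muscle mass. GM cells were taken at 0 h from growth medium with 20% fetal bovine serum (FBS), and SFGM cells at 0 h from serum-free growth medium. DM cells had come from GM and spent 72 h in differentiation medium with 2% FBS. The other cells had come from SFGM and spent 72 h without serum. SFB cells were in a base medium, SFDM cells in differentiation medium built on DMEM/F-12, and cells of the group called DMEM in the differentiation medium built on DMEM. Every group was represented by 3 libraries of poly(A) RNA, A, B and C. They are called biological triplicates, and what a letter stands for is not stated. The labels do not say what the base of SFB is, and no serum-free growth medium was sampled at 72 h, so a difference from SFGM joins the medium with 72 h of culture.

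Satellite cells are the stem cells of skeletal muscle. When they differentiate they leave the cell cycle, express genes of mature muscle and fuse into multinucleated myotubes. In culture this is usually started by lowering serum. DMEM is a simple mixture of salts, glucose, amino acids and vitamins. DMEM/F-12 blends it with Ham's F-12, which brings components that DMEM lacks, among them trace zinc and copper, linoleic acid, lipoic acid, putrescine, hypoxanthine, thymidine, biotin, vitamin B12 and several non-essential amino acids, and it dilutes those of DMEM. Markers of muscle and of other cell types could not be looked up without gene names. In bulk RNA, a change in the share of cells that express a gene and a change in RNA per cell cannot be told apart.

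The libraries held 16162525 to 28589018 counts, the lowest in SFDM replicate A. Every distance between replicates of a group was at most 0.475 root mean square log2 units, and libraries of different groups were at least 0.619 apart. In all 6 groups A and B were the most alike pair of replicates, and in SFB the difference of C from A and B was 41.2 and 42.5 in a chi-square statistic per degree of freedom, against 2.71 between A and B. Counts of members called were therefore also taken without the C libraries.

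The values that chose the genes are a description and carry no test. Ratios of SFDM to DMEM ran from 16.8 in gene 1 and 11.5 in gene 2 to 4.14 in gene 14 and 4.13 in gene 15, and the closest genes below the limit had 3.78 and 3.49. Ratios of DM to GM reached 2.89 in gene 1 and 2.54 in gene 14, with 3.15 and 3.49 for the closest genes above the band, and came down to 0.592 in gene 10 and 0.473 in gene 11, with 0.25 and 0.223 for the closest genes below it. In SFDM the lowest members had 8.10 and 9.26, and the genes just under the limit of 5 had 4.43 and 2.67. In all 32 genes met both limits on SFDM and DMEM, and of those outside the band 12 lay above it and 5 below. Gene 1 lay so near the upper edge that it left the list when totals were scaled by TMM or RLE.

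**Figure D1:**
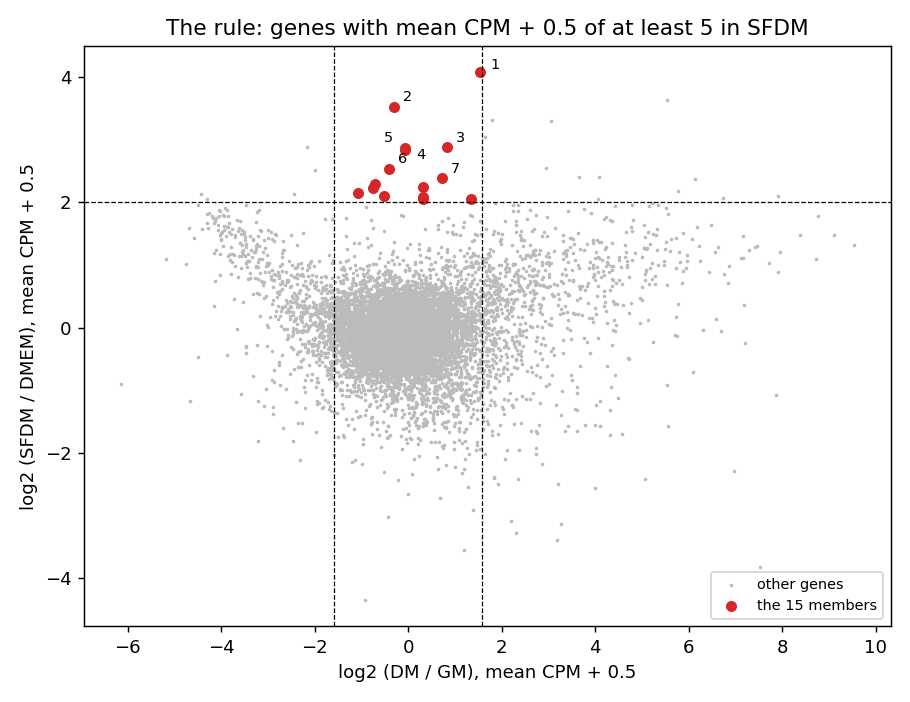
Each point is a gene with a mean CPM + 0.5 of at least 5 in SFDM; the x axis is the log2 ratio of DM to GM, the y axis the log2 ratio of SFDM to DMEM, and dashed lines mark the limits of the rule. The 15 members (red, the first 7 numbered) lie above the horizontal line between the vertical lines, with gene 1 at the right edge of the band.

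The band is a limit on a ratio and not a test of no change. In edgeR's quasi-likelihood test 6 of the 15 were higher in DM than in GM, where 34.2% of all 14637 genes tested were higher, and 5 were lower, against 35.6%. Genes 1, 3, 7, 13, 14 and 15 made up the first set and genes 6, 8, 10, 11 and 12 the second. The rule used this contrast, so nothing is read from these counts. The added 0.5 CPM narrows the ratio of a scarce gene: for gene 7, with 2 counts over GM and 26 over DM, the ratio per depth was 14.9 without it (exact 95% interval 3.74 to 130) and 1.64 with it. In edgeR, with TMM scaling, genes 1 and 14 were also past 3-fold in DM against GM, at 3.24 and 3.14. The members are named here by the rule, as genes higher in SFDM than in DMEM.

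Summed over the 15, the members took 469 ± 29.9 CPM in SFDM and 74.5 ± 7.10 CPM in DMEM (SD, n = 3), the groups that defined them. In the serum-free base medium, which the rule did not use, they took 335, 323 and 402 CPM in libraries A, B and C, and in SFGM 112, 104 and 108 CPM. On this sum the SFB libraries were thus nearer to SFDM than to the 0 h cells from which both came. Single members differed: SFB and SFDM means were 86.4 and 46.8 CPM for gene 10, and 1.43 and 49.9 CPM for gene 3. GM stood at 146 ± 12.1 CPM and DM at 156 ± 12.3 CPM. Of the 15 genes, 12 had their highest mean in SFDM and 3 in SFB, and none in the other 4 groups. The lowest mean was in SFGM for 6 genes, in DMEM for 5, and in GM and DM for 2 each. The rule keeps DMEM from being highest and SFDM from being lowest, and favours the reverse. These counts are therefore a description.

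**Figure D2:**
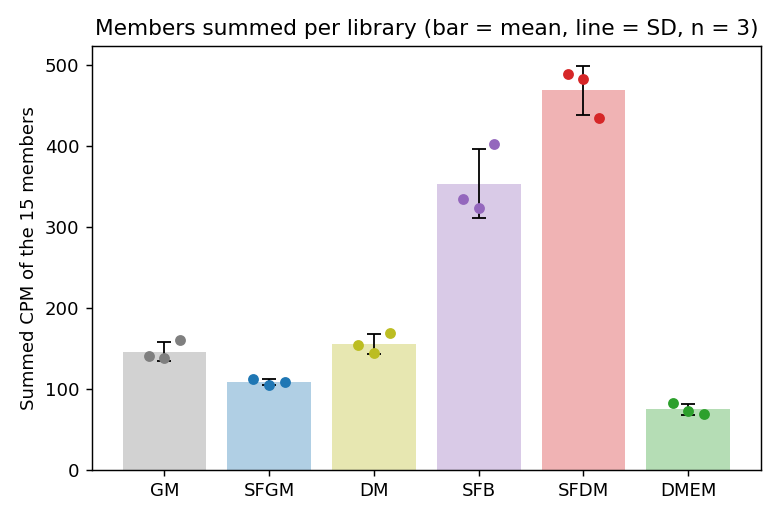
Summed CPM of the 15 members (y axis) in each group (x axis); points are libraries A, B and C from left to right, bars the mean and black lines the SD. SFDM and SFB libraries lie between 323 and 489 CPM, and every library of the other 4 groups lies at 169 CPM or below.

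SFB against SFGM is the one comparison between libraries that had no part in choosing the genes. The SFB cells still share their origin in SFGM, 72 h of culture and lack of serum with SFDM, where members were chosen high. Shares below are over all genes tested, and whether other genes high in SFDM rise as often was not tested. Of the 15 members 13 were higher in SFB, where 28.6% of all genes tested were higher, and 1 was lower, where 29.9% of all genes were lower (edgeR, Benjamini-Hochberg adjusted p under 0.05). All 13 were at least 2-fold higher, by 1.14 to 5.23 on the log2 scale. The median log2 difference of the 15 was 2.47, beside -0.02 over all genes tested. The same 13 had every SFB library above every SFGM library, an arrangement found in 24.7% of all genes. Without the 6 C libraries the counts were again 13 and 1. Gene 7 had enough counts to be tested only with the other groups in the fit. With SFB and SFGM alone, 14 members were tested, of which 12 were higher and 1 lower. The 13 higher members were genes 1, 2, 3, 4, 5, 6, 7, 9, 10, 11, 12, 14 and 15. They stood higher after 72 h in serum-free base medium than in SFGM at 0 h, and medium and time cannot be told apart here.

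The largest rise from SFGM to SFB among members with at least 5 CPM was that of gene 5, ENSBTAG00000006716. It read 0.786, 0.595 and 0.948 CPM in SFGM libraries A, B and C and 24.3, 24.3 and 31.8 CPM in SFB. The groups were far apart, and the log2 difference was 5.23 ± 0.23 (SE; edgeR adjusted p = 5.49e-12). In SFDM it stood at 13.3, 13.3 and 11.7 CPM, below every SFB library, and in DMEM at 1.32, 1.43 and 1.31 CPM. With serum it was scarce before and after differentiation, at 0.382 ± 0.185 CPM in GM and 0.344 ± 0.193 in DM (SD, n = 3). Gene 5 was therefore abundant in SFB and SFDM and low in the other 4 groups.

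Gene 11, ENSBTAG00000020199, had the next largest rise. Its levels were 2.94, 2.97 and 2.69 CPM in SFGM and 34.1, 34.3 and 27.5 CPM in SFB, a log2 difference of 3.59 ± 0.14 (edgeR adjusted p = 1.19e-12). SFDM libraries read 34.2, 35.5 and 36.4 CPM and overlapped with SFB. In DMEM it reached 6.95, 7.53 and 8.24 CPM, above SFGM but well under SFB. In the serum arm it went the other way, from 2.51, 1.91 and 1.58 CPM in GM to 0.740, 0.800 and 0.510 CPM in DM.

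Gene 1, ENSBTAG00000009703, was singled out after its values were seen, as the member with the highest ratio of SFDM to DMEM. It stood at 11.4, 11.4 and 10.8 CPM in SFGM and at 63.6, 52.6 and 71.8 CPM in SFB, a log2 difference of 2.60 ± 0.12 (edgeR adjusted p = 1.1e-11). SFDM was higher still, at 103, 99.2 and 91.3 CPM. DMEM libraries read 5.77, 5.62 and 4.65 CPM, all under the SFGM cells they came from. Differentiation with serum took it from 8.86 ± 1.01 CPM in GM to 26.6 ± 2.32 CPM in DM, the direction seen in SFB and SFDM. Gene 1 is therefore a case where both arms rose over 72 h and only the DMEM libraries, among the 72 h groups, lay below those at 0 h.

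Gene 13, ENSBTAG00000012720, was the member that fell in SFB. SFGM libraries read 21.7, 21.3 and 21.5 CPM and SFB libraries 13.4, 12.5 and 15.1 CPM, a log2 difference of -0.54 ± 0.11 (edgeR adjusted p = 0.000442). DMEM, at 14.4, 13.8 and 11.2 CPM, overlapped with SFB, and the difference between them did not pass the test (log2 -0.10 ± 0.11, edgeR adjusted p = 0.509). As the DMEM libraries were chosen for being low, this comparison is a description. SFDM stood alone among the serum-free groups at 60.7, 59.7 and 51.3 CPM. Gene 8 was the other member that did not rise, with 7.94, 6.89 and 7.23 CPM in SFGM and 6.06, 5.99 and 8.09 CPM in SFB (log2 -0.01 ± 0.15, edgeR adjusted p = 0.956).

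**Figure D3:**
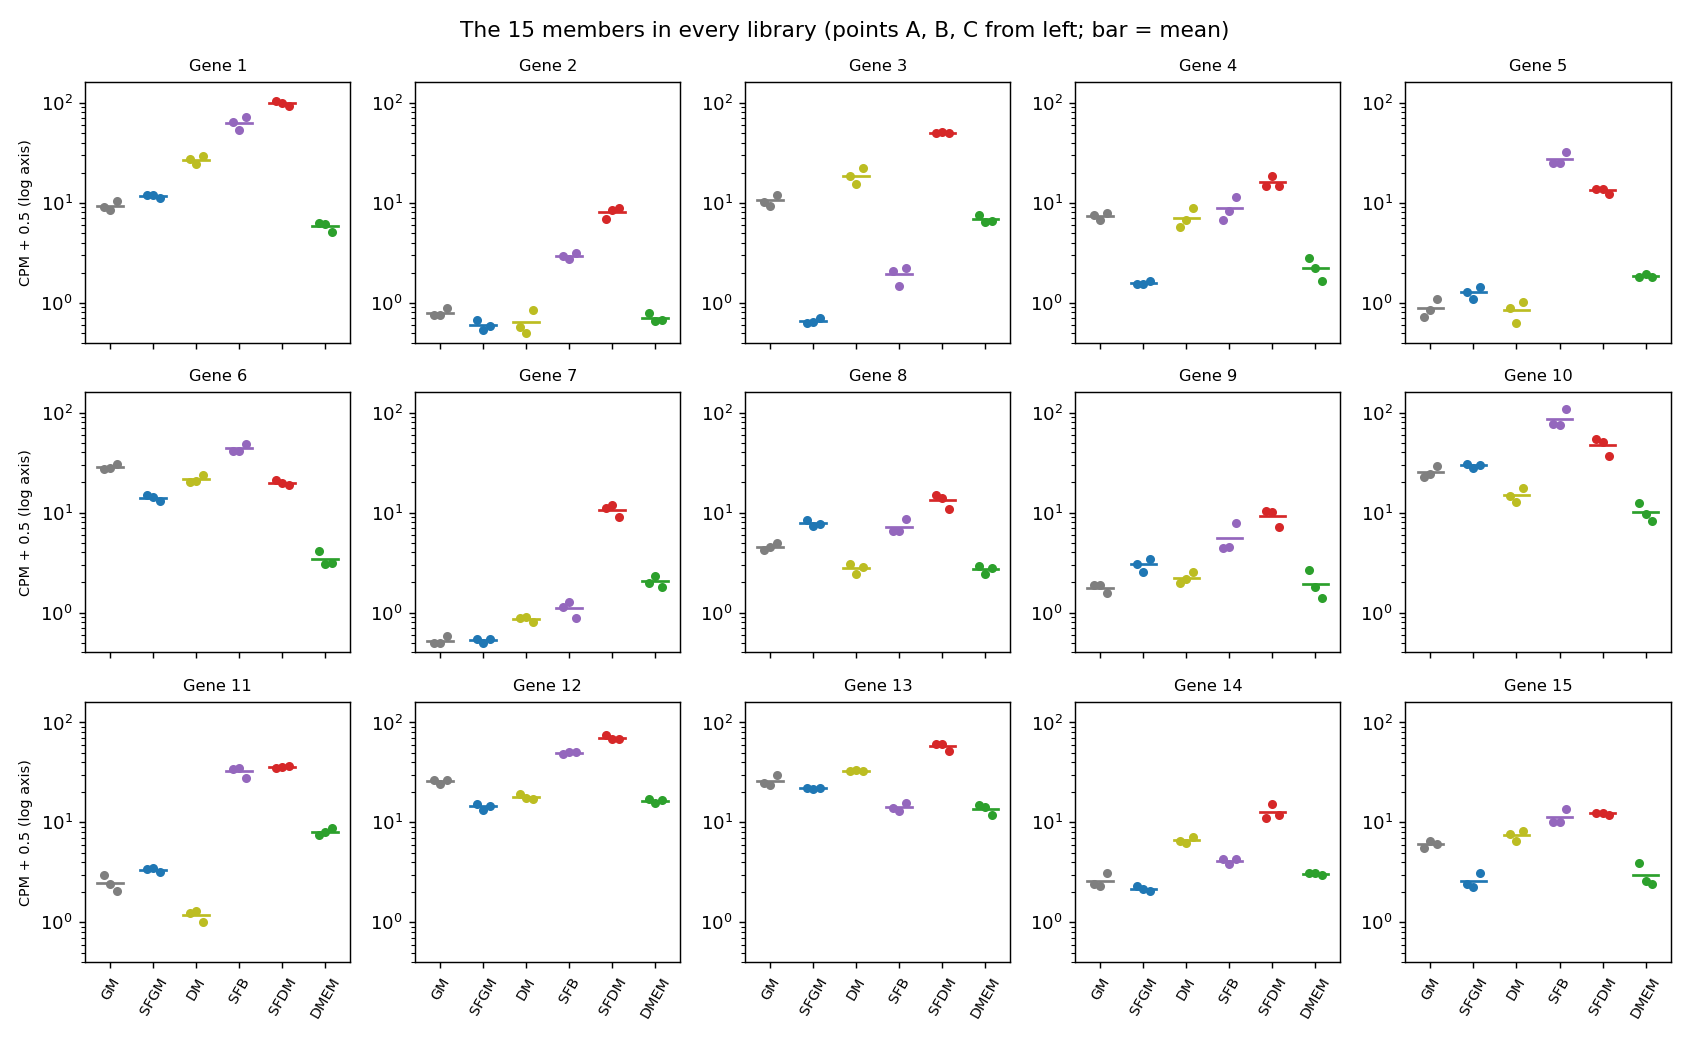
CPM + 0.5 on a log axis (y) for each of the 15 members in the 6 groups (x), with libraries A, B and C as points from left to right and the mean as a bar. SFDM and SFB are the upper pair in most panels, as for gene 11 at 35.3 and 31.9 CPM. The exceptions are genes 3, 6, 7, 8, 13 and 14, of which genes 3 and 7 are low in SFB, at 1.43 and 0.602 CPM.

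SFDM and SFB cells both came from SFGM. SFDM was higher than SFB for 10 genes, where 14.8% of all genes tested were higher, lower for 3, where 20% were lower, and without a call for 2. The SFDM libraries chose the members for being high, which favours the first count, and the second count is the share found over all genes, so neither is read as a property of the members. The counts were the same without the C libraries. The values of single genes follow as a description. Genes 5, 6 and 10 were the 3 that were lower in SFDM than in SFB, by 0.86 to 1.14 on the log2 scale. Genes 11 and 15 were the 2 without a call, at log2 differences of 0.17 ± 0.12 and 0.15 ± 0.18 (SE).

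Of the 3 lower genes, gene 6 read 40.9, 41.2 and 48.1 CPM in SFB and 20.9, 19.1 and 18.3 CPM in SFDM, and gene 10 read 75.9, 74.3 and 109 CPM in SFB and 54.2, 49.8 and 36.4 CPM in SFDM. In both genes the groups did not overlap. DMEM was lower again, at 3.63, 2.55 and 2.62 CPM for gene 6 and 11.9, 9.09 and 7.73 CPM for gene 10. Both fell in the serum arm, gene 6 from 28.1 ± 1.62 CPM in GM to 21.1 ± 2.08 in DM and gene 10 from 25.1 ± 3.45 to 14.6 ± 2.47 (SD, n = 3). Gene 6 had all 3 GM libraries, at 26.7, 27.6 and 29.9 CPM, above all 3 SFDM libraries, so SFDM was high for this gene only beside DMEM and SFGM.

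At the other end, genes 2, 3, 7, 13 and 14 were at least 2-fold higher in SFDM, which was chosen for being high, than in SFB. Gene 3 was the most marked. It read 49.9, 50.7 and 49.1 CPM in SFDM and 1.58, 0.977 and 1.72 CPM in SFB, a log2 difference of 5.15 ± 0.18 (SE). DMEM, at 7.09, 5.90 and 6.09 CPM, was also above SFB, by 2.11 ± 0.19 on the log2 scale. Gene 3 was thus higher in both differentiation media than in base medium, and higher in SFDM than in DMEM.

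Gene 7 had the same order at lower levels. SFDM libraries read 10.7, 11.3 and 8.55 CPM, DMEM libraries 1.5, 1.83 and 1.31 CPM, and SFB libraries 0.640, 0.774 and 0.391 CPM. Before differentiation it was near absent, with 2 counts over the 3 GM libraries and 2 over the 3 SFGM libraries, where 3 counts over a group correspond to 0.0364 and 0.0384 CPM. The ratio of SFDM to SFGM was 400, with an exact 95% interval of 110 to 3310 for counting error only, and that of DMEM to SFGM was 60.5 (16.4 to 505). Genes 3 and 7 were the 2 members higher in DMEM than in SFB, a call made for 20.8% of all genes, while 12 were lower in DMEM, a call made for 20.1%. The DMEM libraries were chosen for being low, which favours the second count.

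Gene 2 was also scarce outside SFDM and SFB. It read 6.31, 8.03 and 8.46 CPM in SFDM and 2.43, 2.24 and 2.62 CPM in SFB, with no overlap. DMEM libraries, at 0.285, 0.159 and 0.169 CPM, were within the reach of the 0 h cells, at 0.247, 0.248 and 0.386 CPM in GM and 0.165, 0.0350 and 0.0790 CPM in SFGM. DM libraries read 0.0779, 0 and 0.340 CPM. At these depths 3 counts in 1 library correspond to 0.105 to 0.186 CPM, so differences among GM, SFGM, DM and DMEM were not measurable with any precision for gene 2.

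Whether the gap between SFDM and DMEM came with a rise in SFDM or a fall in DMEM was set out against SFGM, the cells from which both started. In SFDM all 15 members were higher than in SFGM, where 28% of all genes were higher, by 0.65 to 8.50 on the log2 scale, and this count leans on libraries chosen for being high. In DMEM 7 members were higher than in SFGM, where 32.1% of all genes were higher, and 5 were lower, where 31.3% were lower. The median log2 difference from SFGM was 3.01 in SFDM and 0.32 in DMEM, beside -0.06 and 0.00 over all genes tested. The comparisons share the SFGM libraries. The DMEM libraries were chosen for being low and the SFDM libraries for being high, and the DMEM shares of lower calls were close over members and all genes, so the counts are given as a description. Without the C libraries 8 were higher and 5 lower in DMEM, and without SFGM replicate B 5 were higher and 5 lower.

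The genes behind these counts were as follows, again as a description, with DMEM libraries chosen for being low. Genes 1, 6, 8, 10 and 13 were lower in DMEM than in SFGM, by 0.64 to 2.13 log2 units. Genes 3, 4, 5, 7, 11, 12 and 14 were higher in DMEM than in SFGM as well, by 0.27 to 5.72 log2 units. Genes 2, 9 and 15 had no call in DMEM, with log2 differences of 1.23 ± 0.71, -0.71 ± 0.32 and 0.32 ± 0.22 (SE; edgeR adjusted p = 0.143, 0.0634 and 0.226). The call of gene 4 was weak (log2 0.75 ± 0.31, edgeR adjusted p = 0.0423), and it was lost in each of 6 alternatives, among them leaving out DMEM replicate A, which gave 0.48. That of gene 5 (log2 0.88 ± 0.28, edgeR adjusted p = 0.0120) was lost without SFGM replicate B, at 0.71 (edgeR adjusted p = 0.0621). Gene 9 passed the test without DMEM replicate A, at a log2 difference of -1.12, and gene 15 passed it without the C libraries, at 0.66.

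**Figure D4:**
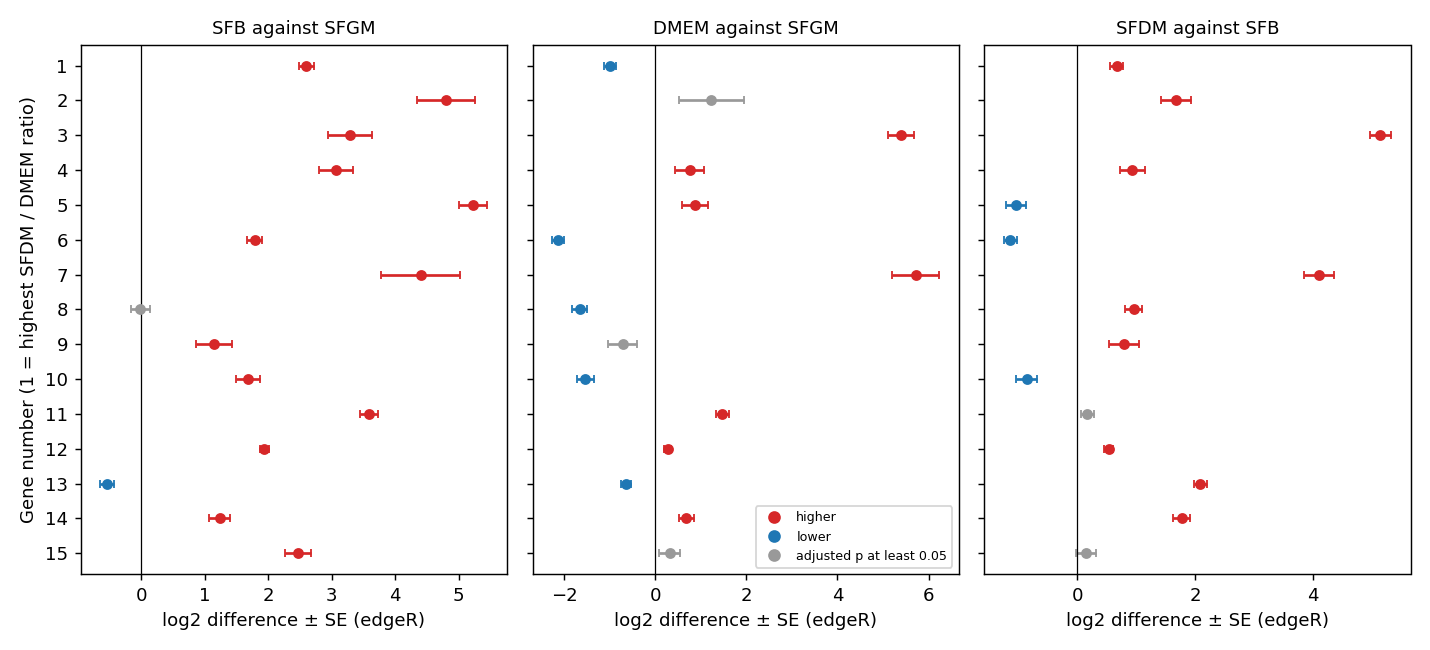
Log2 differences with their SE (x axis, a separate range in each panel) for the 15 members (y axis) in SFB against SFGM, DMEM against SFGM and SFDM against SFB; red is higher, blue lower and grey an edgeR adjusted p of at least 0.05. In the left panel 13 of 15 points are red, in the middle panel 7 are red and 5 blue, and in the right panel 10 are red and 3 blue.

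Gene 12 was among the members that rose in both media. It read 14.9, 12.9 and 14.0 CPM in SFGM, 48.1, 49.7 and 50.5 CPM in SFB and 74.0, 68.4 and 68.1 CPM in SFDM. DMEM, at 16.6, 15.3 and 16.2 CPM, lay just above SFGM without overlap (log2 0.27 ± 0.08, edgeR adjusted p = 0.00529). The DMEM libraries entered the rule for being low, so this difference is a description. GM stood at 25.3 ± 1.42 CPM and DM at 17.4 ± 1.23 CPM (SD, n = 3), and the DMEM libraries overlapped with DM and lay below GM. The median coefficient of variation over the 15 members was lowest in SFGM at 7.28%, and was 9.01% for SFDM, 12.7% for DMEM and 16.2% for SFB.

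The remaining members complete the account. Gene 4 read 14.4, 18.1 and 14.4 CPM in SFDM, 6.27, 7.70 and 10.99 CPM in SFB, 2.28, 1.71 and 1.14 CPM in DMEM and 1.03, 1.05 and 1.14 CPM in SFGM. Gene 9 read 9.96, 9.72 and 6.61 CPM in SFDM and 3.93, 4.03 and 7.43 CPM in SFB, and here the groups overlapped. Its call in SFDM against SFB (log2 0.79 ± 0.26, edgeR adjusted p = 0.0259) leans on SFDM libraries chosen for being high, and was lost in 5 alternatives, at adjusted p of up to 0.114. Gene 15 read 12.003, 11.9 and 11.5 CPM in SFDM and 9.65, 9.61 and 13.1 CPM in SFB, again with overlap.

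Genes 8 and 14 had no overlap between SFDM and SFB. Gene 14 read 10.5, 14.7 and 11.5 CPM in SFDM, 3.80, 3.34 and 3.83 CPM in SFB and 2.64, 2.59 and 2.49 CPM in DMEM. Gene 8 read 14.6, 13.5 and 10.4 CPM in SFDM and 2.42, 1.95 and 2.28 CPM in DMEM, with SFGM between them at 7.35 ± 0.535 CPM (SD, n = 3). Gene 14 was the one of this pair that also rose with serum, from 2.13 ± 0.440 CPM in GM to 6.17 ± 0.505 in DM, while gene 8 went from 4.05 ± 0.369 to 2.27 ± 0.335 CPM.

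Before differentiation some members already differed between growth media, in both directions. In SFGM 4 were higher than in GM, where 19.6% of all genes were higher, and 6 were lower, where 19.4% were lower. The share of higher calls, 26.7% of members, was near that over all genes. The GM libraries entered the rule through the ratio of DM to GM, so counts and single genes are a description. Gene 3 stood apart, with 9.72, 8.84 and 11.6 CPM in GM and 0.124, 0.140 and 0.197 CPM in SFGM, a log2 difference of -6.01 ± 0.26 (SE; edgeR adjusted p = 1.36e-11). Gene 4 was lower in SFGM by 2.71 ± 0.27 log2 units and gene 15 by 1.43 ± 0.21. Without the C libraries the counts were 5 and 6. The median log2 difference of the 15 was -0.29, and that of all genes -0.02. The 4 higher calls, for genes 5, 8, 9 and 11, were at most 0.99 log2 units. The edgeR adjusted p was 0.000351 for gene 8 and 0.0256 to 0.0345 for the others. Their count depended on single libraries, with 1 left when GM replicate B or SFGM replicate A was omitted and 2 when GM replicate A or SFGM replicate C was.

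Set beside the end point of serum-based differentiation, the SFDM level was above that of DM in every library for 14 of the 15 members, all but gene 6, an arrangement found in 24.9% of all genes tested. On means with 0.5 CPM added, SFDM was 30.3 times DM for gene 11, 15.7 times for gene 5, 12.7 times for gene 2 and 12.4 times for gene 7. It was 1.64 times DM for gene 15 and 1.75 times for gene 13. Gene 6 was the exception at 0.922 times. SFDM was chosen for being high and DM was not, so the direction is a description. For gene 3, which serum-free growth medium had at a low level, the DMEM mean of 6.36 ± 0.640 CPM was below GM at 10.04 ± 1.38 and DM at 18.1 ± 3.26, and the SFDM mean of 49.9 ± 0.764 was above both (SD, n = 3).

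Other genes with a gap between SFDM and DMEM are given for scale, with no test between sets. Of the 12 genes that met the limits on SFDM and DMEM but had a DM to GM ratio above 3, 10 were higher and 1 lower in SFB than in SFGM, and in DMEM 10 were higher and 2 lower. Of the 5 with a ratio below 1/3, 3 were higher and 2 lower in SFB, and 1 higher and 4 lower in DMEM. Of the 15 genes in the band with an SFDM to DMEM ratio of 3 to 4, 10 were higher in SFB and 2 lower. In DMEM 8 of them were higher and 5 lower. For the reverse rule, DMEM at least 4 times SFDM in the same band, there were 49 genes, of which 13 were higher and 26 lower in SFB than in SFGM. In DMEM 40 were higher and 4 lower. Over all genes tested, 28.6% were higher and 29.9% lower in SFB, and 32.1% and 31.3% in DMEM. The DMEM libraries chose these sets, so their DMEM counts are a description. Between the 15 members, Pearson correlations over the 6 group means on log2 values had a median of 0.650 over 105 pairs. They ran from -0.194 to 0.967, with 5 pairs below 0. These correlations are a description over 6 points, 4 of which entered the rule. The rule favours positive values, and no value over other genes was set beside them.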

How the data were processed

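Poly(A) RNA from 18 cultures was prepared with a stranded mRNA kit and sequenced, per the labels' protocols. The authors deposited raw counts per gene identifier, not normalised, made with STAR 2.7 and featureCounts on bosTau9 per the submitters' processing notes. The strand setting, annotation release and aligner parameters are not given in the sources that were used, so overlapping, antisense and near-identical genes may share reads. The reference table matched 0 identifiers to a symbol, so the pathway and marker lists prepared for this work were not used.

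Levels are CPM on column totals. Tests used R 4.3.3 and edgeR 4.0.16: filterByExpr by group (minimum count 10, total 15) kept 14637 genes with 99.97% of the counts, TMM scaling, a quasi-likelihood fit with a mean per group over all 18 libraries, and two-sided contrasts with Benjamini-Hochberg adjustment over all genes at 0.05. The SE of a log2 difference is its size divided by the square root of F. Replicates differed by more than sampling noise in every pair, at 1.88 or more per degree of freedom, and all were kept; p-values rest on the spread among these cultures. The test was checked on simulated counts.

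The members, lists and comparisons were chosen with earlier results of these data known. Identifiers were named by a rule: the members with the largest rises and falls in SFB against SFGM, with an adjusted p under 0.05, no overlap of libraries and a higher mean of at least 5 CPM; only 1 member fell, and gene 1 was added. Alternatives were RLE scaling, totals alone, no or a stricter filter (at least 1 CPM in 3 libraries), DESeq2 1.42.0, only the compared groups, the replicate letter as a block, and omission of each library. Omission of all C libraries was added after the data were seen. Counts of 3 or fewer carry exact 95% intervals that cover counting error only.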

Additional observations from a re-analysis of the deposited data

Results flagged for a closer look

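In 5 members SFB and SFGM libraries did not overlap, nor did DM and GM libraries, and the differences had opposite directions. This arrangement was found in 7.15% of all genes tested. Taken alone, DM libraries lay below GM libraries without overlap for 5 members, against 42.5% of all genes, and above for 7, against 31.1%. Rises in SFB without overlap were found in 13 members, against 24.7% of all genes. The DM and GM libraries entered the rule, so the count of 5 is a description. The difference between the arms was not tested, because the rule had limited the ratio of DM to GM. Gene 6 had a log2 difference of 1.79 in SFB against SFGM and -0.30 in DM against GM. For gene 10 the values were 1.69 and -0.66, for gene 11 they were 3.59 and -1.44, and for gene 12 they were 1.94 and -0.43. Gene 13 went the opposite way, with -0.54 in SFB and 0.45 in DM.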

How the results depend on the processing

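The rule gave 14 members on TMM-scaled totals, 16 on RLE-scaled totals, 16 and 14 with 0.25 and 1 CPM added, 14 with medians, and 13 to 16 when a library was left out; 10 genes (2 to 8 and 10 to 12) were members under all 17 of these. The 13 higher and 1 lower calls in SFB against SFGM held under the alternatives run, except that 12 were higher with only these groups in the fit, where gene 7 did not pass the filter. Gene 8, without a call, turned to log2 differences of 0.007 with RLE scaling and DESeq2, 0.016 with only the compared groups, 0.046 without SFGM replicate A, and 0.060 and 0.065 without SFB replicates A and B, within a range of -0.173 to 0.065 on leaving out a library; without the C libraries it stood at -0.180 (edgeR adjusted p = 0.268). Gene 15 in DMEM against SFGM, also without a call, turned to -0.004 without DMEM replicate A, within a range of -0.004 to 0.493, and passed the test at 0.663 without the C libraries. Higher calls in SFGM against GM ranged from 1 to 3 on leaving out a library. The share of counts in members in SFGM was 0.0108%, and 0.0102% on TMM-scaled totals. Under scaling by totals alone the median gene moved by -0.141 log2 units in SFDM against SFGM, the largest such shift, and in DMEM against SFGM, where it moved by -0.071, the counts went from 7 higher and 5 lower to 6 and 6. With the replicate block, 13 and 1 members were called in SFB against SFGM, and 4 and 5 in SFGM against GM instead of 4 and 6. Correlations of deviations between libraries of the same letter were not all above 0.1 in any of these 6 comparisons (0.093, 0.186 and 0.336 for A, B and C in SFB against SFGM), so the letters were not taken as pairs there. In DM against GM they were 0.131, 0.184 and 0.426, and the block left the counts at 6 and 5. Depth limits gene 2 outside SFDM and SFB, and gene 7 in GM, SFGM, DM and SFB.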

Other observations

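Within groups, the members were not spread evenly over the replicate letters. In SFB library C was the highest of the 3 for 13 of 15 members, where it was highest for 44.1% of all genes tested. In SFDM library C was the lowest for 11 members, against 41.9% of all genes, and in DMEM library A was the highest for 12, against 38.2%. In GM and DM library C was the highest for 11 and 10 members, against 44% and 42.2% of all genes. Gene 10 shows the pattern, with 109 CPM in SFB replicate C beside 74.3 and 75.9, 36.4 CPM in SFDM replicate C beside 49.8 and 54.2, and 7.73 CPM in DMEM replicate C beside 9.09 and 11.9. These are values of single libraries, noticed after the data were seen, and what the letters mark is not stated.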
